A study of Glycine max with 4 samples.

Results

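Chromosomes 10 and 20 of soybean were compared as carriers of binding sites of the protein GLYMA.13G317000. All peaks on either chromosome were taken from the lists of both ChIP replicates, peaks overlapping by at least 1 bp were merged, and regions with peaks of both replicates were kept. This gave 1477 regions on chromosome 10 and 1207 on chromosome 20, together 2684 of the 28903 such regions in the series. The chromosomes were paired because they are held to share large duplicated blocks. That background was not tested here, since it needs sequence of the build on which the peaks were placed.

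Chromatin immunoprecipitation followed by sequencing (ChIP-seq) recovers the DNA to which a protein is bound. It was done on embryos of the cultivar Williams 82 at the early maturation stage, dissected from seeds of 6 to 7 mm. Tissue was cross-linked with formaldehyde and chromatin was sheared to 100 to 500 bp. It was precipitated with an anti-peptide antibody to GLYMA.13G317000, while chromatin set aside beforehand served as input. The series holds 2 ChIP and 2 input libraries, numbered as biological replicates 1 and 2, from 1 genotype and 1 stage, with no treatment. Peaks are named after BZIP67 in the lists, and this was read as another name of the protein, which the labels do not state. Plants lacking the protein were not analysed here, so binding by relatives sharing the peptide cannot be told apart from its own.

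Basic leucine zipper (bZIP) transcription factors bind DNA as dimers, commonly at sites with an ACGT core. In Arabidopsis, bZIP67 acts in the maturing seed with NF-Y partners such as LEC1-LIKE on genes for storage protein and oil. Soybean descends from ancestors that duplicated their whole genome, so most of its genes have a copy on another chromosome. On a soybean chromosome, genes are dense toward both ends and sparse in a long, repeat-rich middle around the centromere.

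Both chromosomes gave peaks in both replicates at rates near those of the series. On chromosome 10, 1479 of 2481 peaks of replicate 1 (59.6%, Wilson 95% interval 57.7 to 61.5%) overlapped a peak of replicate 2, against 61.3% in the whole list. On chromosome 20 it was 1208 of 1991 (60.7%, 58.5 to 62.8%). In the other direction, 1501 of 1540 replicate 2 peaks of chromosome 10 (97.5%, 96.6 to 98.1%) and 1224 of 1275 of chromosome 20 (96.0%, 94.8 to 96.9%) were found in replicate 1, against 96.8%. These shares lie close to the background, so neither chromosome stood out in recovery. Replicate 2 summits lay within 50 bp of those of replicate 1 in 82.3% of regions on chromosome 10 and 82.0% on chromosome 20. Across regions, the Spearman correlation of fold between replicates was 0.816 on both, within the range of 0.808 to 0.855 over the 20 chromosomes. Fold is the authors' ratio of ChIP signal at the summit to local background. It was lower in replicate 2 at 81.3% of regions on chromosome 10 and 81.0% on chromosome 20.

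Shared regions were denser on chromosome 10 than on chromosome 20. Measured to the last peak, chromosome 10 had 28.7 regions per Mb over 51.5 Mb and chromosome 20 had 25.2 over 47.9 Mb. The same order held in each list, with 48.1 against 41.6 peaks per Mb in replicate 1 and 29.9 against 26.6 in replicate 2. Over the 20 chromosomes the density of shared regions ranged from 23.1 to 45.4 per Mb, with a mean of 30.3 over all their length. Chromosome 10 placed 11 from the highest and chromosome 20 placed 16. No test was made, since both libraries are of 1 condition and the regions of a chromosome are not replicates.

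The dense runs at the ends were unequal at the first end and alike at the last, when each run is measured from its own end. In bins of 1 Mb, an unbroken run at or above the mean density of 30.3 regions opened chromosome 10 over 8 Mb and held 446 regions, or 55.8 per Mb. The same kind of run on chromosome 20 was 3 Mb long and held 111 regions, or 37.0 per Mb. At the other end the run spanned 14 full bins on each, with 839 regions on chromosome 10 and 849 on chromosome 20, or 59.9 and 60.6 per Mb. The incomplete last bin held 16 and 43 more, at 29.1 and 47.7 per Mb, so that of chromosome 10 was itself just below the mean. With this bin, which is counted in from here on, the closing run measured 14.5 Mb with 855 regions and 14.9 Mb with 892, at 58.8 and 59.9 regions per Mb. That was the longest closing run of any chromosome, and chromosomes 13 and 19 reached it as well, against a median of 8 bins. The middles were similarly sparse, with 6.07 regions per Mb over 29 Mb of chromosome 10 and 6.80 over 30 Mb of chromosome 20.

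**Figure D1:**
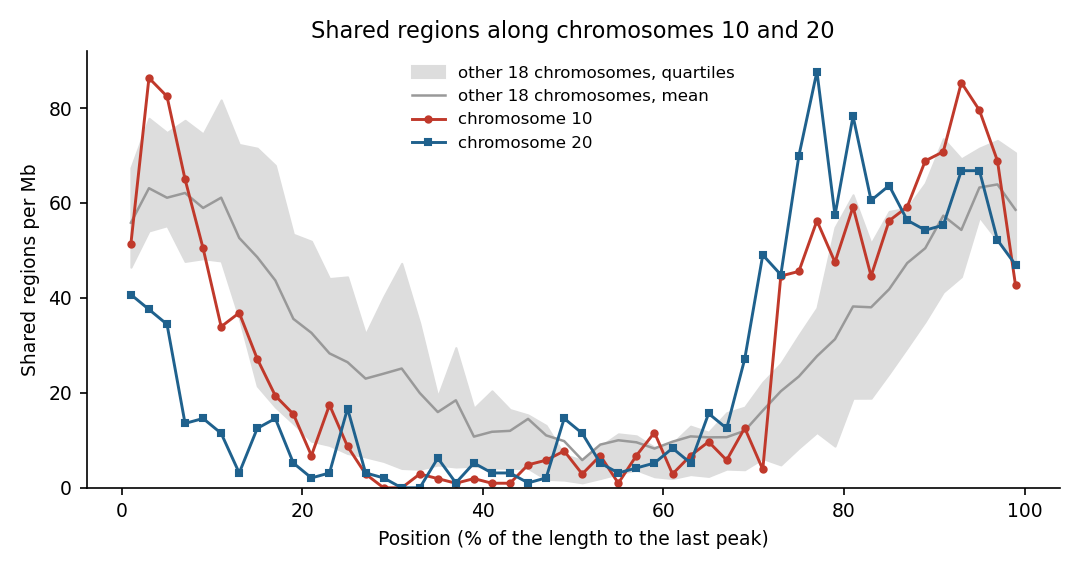
Density of shared regions (y axis, regions per Mb) along chromosomes 10 and 20 in 50 bins of equal relative length (x axis, percent of the length to the last peak). The line and band in grey give the mean and quartiles of the other 18 chromosomes. Chromosome 20 is low at its first end, where it opens with 37.0 regions per Mb over 3 Mb, and both chromosomes are dense over the last 14.5 to 14.9 Mb.

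Bin by bin from position 1, the first 5 bins of chromosome 10 held 48, 84, 89, 59 and 55 regions, and those of chromosome 20 held 40, 38, 33, 12 and 16. The densest bin of chromosome 10 was bin 49, with 91 regions, followed by bin 3 with 89. On chromosome 20 it was bin 39, with 79, followed by bins 41 and 45 with 69 each. The 3 densest bins of chromosome 10 therefore included 1 near its start, and those of chromosome 20 all lay in the closing run. Of the 47 bins that both chromosomes have when counted from position 1, 29 differed by at most 10 regions. Chromosome 10 was higher by more than 10 in 10 bins and chromosome 20 in 8. The largest difference was in bin 37, with 4 regions on chromosome 10 and 65 on chromosome 20, where the closing run of chromosome 20 had begun and that of chromosome 10 had not. Bins 1 to 8 held 446 and 166 regions, 280 more on chromosome 10, and bins 34 to 41 held 216 and 497, 281 more on chromosome 20. Over the 47 bins the totals were thus nearly equal, at 1158 and 1164. From bin 48 on, chromosome 10 had 319 regions and chromosome 20, which ends within that bin, had 43. Those groups of bins were chosen after the values were seen.

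The split between ends followed from this. The first and last 20% of the length together held 77.0% of the regions of chromosome 10 and 62.6% of those of chromosome 20. In replicate 1 alone these shares were 76.1% and 63.0%, and in replicate 2 alone 76.5% and 62.1%, so the difference was far larger than the spread between replicates. Chromosome 10 had 483 regions in its first 20% and 655 in its last 20%, a ratio of 1.36. Chromosome 20 had 180 and 576, a ratio of 3.20. That ratio was the second highest of the 20 chromosomes, after chromosome 13 with 18.9.

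The next comparison asked whether the chromosomes resembled each other in profile more than other chromosomes do. Read from position 1 in the same orientation, the counts of 47 bins correlated at 0.695 by Spearman's rho and 0.597 by Pearson's r. The 190 pairs of the 20 chromosomes had a median Spearman correlation of 0.537 (quartiles 0.294 and 0.683) and a highest of 0.9001, between chromosomes 6 and 8. The pair of 10 and 20 placed 44 of 190 by Spearman and 93 by Pearson. Among the 19 pairs of chromosome 10 it placed 7, with chromosome 9 the closest at 0.814. Among those of chromosome 20 it placed 5, with chromosome 3 the closest at 0.827. Bins share their libraries and neighbouring bins are alike, so these correlations are descriptions without a p-value.

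In the opposite orientation the profiles were less alike. With chromosome 10 read from position 1 and chromosome 20 from its last peak, the correlation was 0.411, placed 116 of 190, below the median of 0.532. With chromosome 10 read from its last peak instead, it was -0.04, placed 165. With both read from their last peaks in the same orientation it was 0.808, placed 12, which was the best place among the alignments in 1 Mb bins. Within chromosome 10 the profiles of the 2 replicates had a Spearman correlation of 0.982, and within chromosome 20 of 0.981. All 190 pairs lay below these values, with highest correlations from position 1 of 0.9001 in the same and 0.912 in the opposite orientation. The replicates profile the same chromosome, so their agreement does not measure how alike 2 chromosomes may be.

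Of the 20 chromosomes, 19 opened with a dense run and 20 closed with one, so profiles have a shape in common. Each profile was therefore cut into 50 bins of equal relative length, divided by its mean, and reduced by the mean of the other 18 chromosomes. The pair of 10 and 20 then had a Spearman correlation of 0.676 in the same orientation, placed 19 of 190, where the median pair had 0.08. In the opposite orientation it was -0.68, placed 174. Chromosome 20 remained closer to chromosome 19 (0.920), and chromosome 10 to chromosome 5 (0.729). By Pearson the pair had 0.672, placed 16, and chromosome 20 was then the closest of all to chromosome 10, while chromosome 20 was closest to chromosome 3 (0.868). The likeness of 10 and 20 beyond the common profile was thus in the upper part of all pairs and in 1 orientation, but 18 other pairs by Spearman were more alike.

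**Figure D2:**
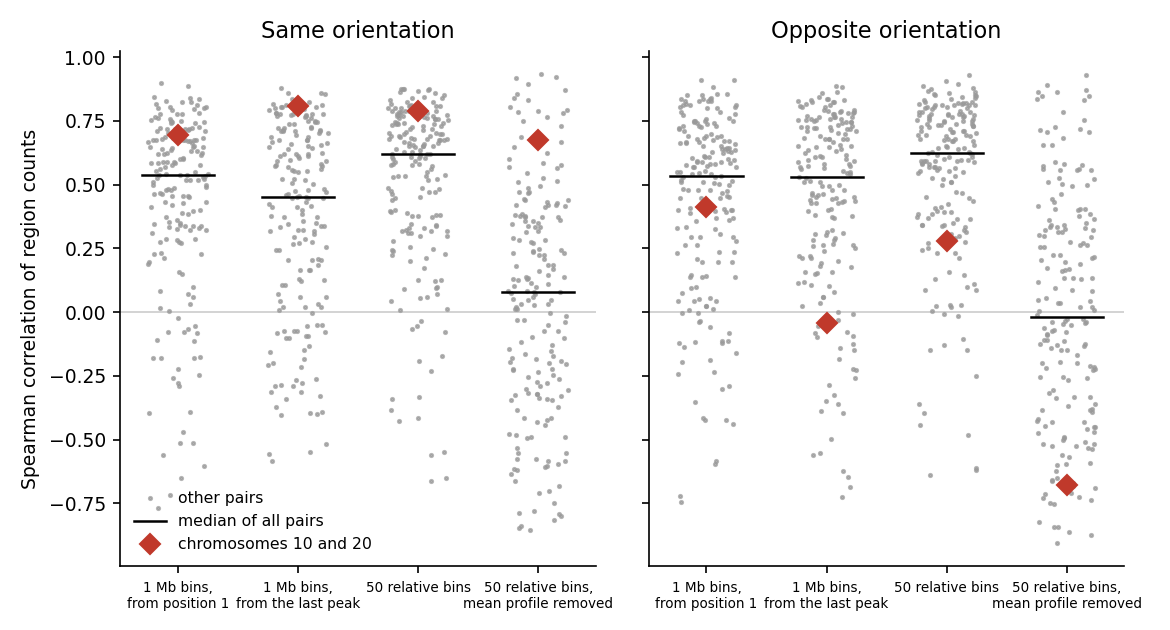
Spearman correlation of region counts (y axis) for the 190 chromosome pairs under 4 ways of aligning them (x axis), in the same orientation (left) and the opposite orientation (right). Points are pairs, black lines the median of all pairs and diamonds chromosomes 10 and 20, which lie at 0.695, 0.808, 0.787 and 0.676 on the left and at 0.411, -0.04, 0.279 and -0.68 on the right.

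Sliding one profile along the other raised the correlation. Offsets of up to 10 bins either way were tried with bins laid from position 1. In the same orientation the highest value was 0.835, with bins of chromosome 20 set against bins of chromosome 10 that lie 4 bins farther along. That offset brings the starts of the closing runs together, at bin 38 of chromosome 10 and bin 34 of chromosome 20. In the opposite orientation the highest was 0.733, at an offset of 6 bins. At an offset of 0 that orientation gave 0.518 and not 0.411, because full bins laid from position 1 were turned round, in place of bins laid from the last peak. Over all pairs treated alike, the median of the best value was 0.766 in the same and 0.760 in the opposite orientation, so the pair placed 20 and 122.

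**Figure D3:**
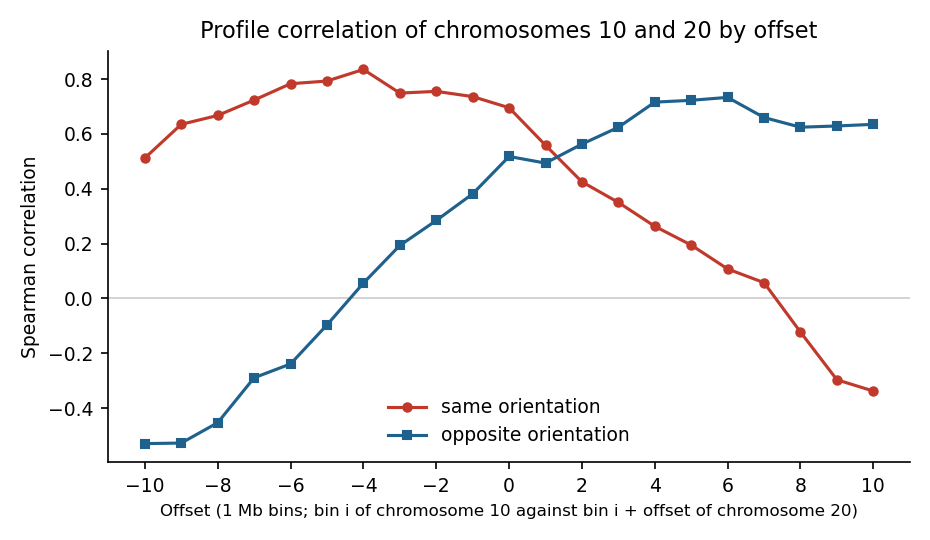
Spearman correlation of the 1 Mb profiles of chromosomes 10 and 20 (y axis) against the offset in bins (x axis), with circles for the same and squares for the opposite orientation. The same orientation peaks at 0.835 at an offset of -4 bins and the opposite at 0.733 at 6 bins.

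Comparing ends separately did not single out 1 pair of ends. Over the outer 12 bins, the closing ends held 735 regions on chromosome 10 and 739 on chromosome 20, which placed 5 and 4 of the 20 chromosomes. The opening ends held 496 and 197, placed 12 and 19. Read from the tip inward, the closing ends had a bin-by-bin correlation of 0.123, placed 137 of 190. With 1 of them turned round it was 0.326, placed 29. The closing ends thus matched in their totals, while the order of their bins matched weakly. The first end of chromosome 10 against the last end of chromosome 20, with 1 turned round, had 0.488, placed 12. With 12 bins and 8 such comparisons, places of this kind carry little weight.

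Counted from position 1, the longest stretches without a shared region were almost the same on both chromosomes. On chromosome 10 the stretch ran from 13791705 to 16636790, a length of 2.85 Mb between neighbouring replicate 1 summits. On chromosome 20 it ran from 13737216 to 16567045, or 2.83 Mb. These were the longest and the second longest of the 28725 stretches on the 20 chromosomes. Their starts differed by 54.5 kb, their ends by 69.7 kb and their lengths by 15.3 kb. Counted from position 1, the shared part made up 95.7% of the length that either covers. Of the 190 pairs of longest stretches, 23 overlapped at all, and the next highest overlap was 69.1%, between chromosomes 1 and 3. As a share of chromosome length the stretches matched less well, with 45.9% overlap, placed 11. Counted back from the last peaks, which lie at 51.5 and 47.9 Mb, they do not overlap at all. The profiles correlated better in that alignment (0.808 against 0.695 from position 1), so the 2 likenesses do not hold together. No other pair of chromosomes had 2 empty 1 Mb bins at the same count from position 1 (bins 15 and 16 here). Those bins lie inside both stretches, so this follows from the overlap and is not a further likeness. Few pairs could share 2 such bins, since the median chromosome had 1 empty bin.

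The stretches differed in what single replicates found inside. On chromosome 20, replicate 1 had 1 peak there, with a fold of 3.71, and the longest part with no peak of either list was 2.71 Mb. On chromosome 10, replicate 1 had 2 peaks, with folds of 2.85 and 3.32, and the longest part with no peak was 1.43 Mb. Replicate 2 had none in either stretch. By replicate 2 alone the longest stretches were again 2.85 and 2.83 Mb, while by replicate 1 alone they were 1.43 Mb on chromosome 10 and 2.71 Mb on chromosome 20. The likeness therefore held in shared regions and in replicate 2, which do not count separately, since nearly all replicate 2 peaks are shared. It did not hold in replicate 1, which has more peaks. How reads from repeats were placed was not tested.

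The flanking sites of the stretches were of ordinary to high strength. Left of the stretch on chromosome 10, the flanking site had a fold of 17.9 in replicate 1 and 13.03 in replicate 2, and its right flank 5.89 and 3.597. On chromosome 20 the left flank had 9.70 and 6.78, and the right 12.6 and 10.8. The remaining long stretches lay elsewhere on each chromosome. The second on chromosome 10 ran from 28037170 to 29261295 (1.22 Mb) and the third from 19103902 to 20278063 (1.17 Mb). On chromosome 20 they ran from 20284924 to 21932912 (1.65 Mb) and from 10122749 to 11061148 (0.938 Mb). The other 2 of the 5 longest measured 0.957 and 0.952 Mb on chromosome 10 and 0.790 and 0.739 Mb on chromosome 20. Stretches over 500 kb numbered 17 on chromosome 10, as on chromosomes 18 and 19 and more than on any other. They covered 29.5% of its length, the highest share, next to 29.46% on chromosome 19. Chromosome 20 had 11, which covered 21.5%.

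The maxima of both chromosomes were low among those of the 20 chromosomes. Of 28903 regions, the 10 strongest held places 46 to 195 on chromosome 10 and 58 to 299 on chromosome 20. The strongest regions of a chromosome rank high by their selection, so these places single out neither. The highest mean fold of both replicates was 26.2 on chromosome 10 and 25.5 on chromosome 20, the third and second lowest maxima of the 20 chromosomes, which reached 34.0 at most. Of the 100 strongest regions of the series, 3 lay on chromosome 10 and 1 on chromosome 20, against a median of 4 per chromosome. The 2 chromosomes held 1477 and 1207 of the 28903 regions, and counts this small were not tested. The first of chromosome 10, from 42601210 to 42601935, reached a fold of 26.8 in replicate 1 and of 25.5 in the other (SD 0.888, n = 2). Its summits rested on 304 fragments (exact Poisson 95% interval 271 to 340) and 216 (188 to 247). That of chromosome 20, from 35315207 to 35316272, reached 26.7 and 24.3 (SD 1.70). It rested on 306 fragments (273 to 342) and 210 (183 to 240). The difference between these maxima was within the SDs of the replicates.

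On chromosome 10 the 10 strongest regions lay at both ends, 4 in the opening and 6 in the closing run. These runs held 30.2 and 57.9% of all its regions, so the split was near that of all regions. The second, from 918550 to 919222, had a mean fold of 24.9 ± 0.809 (SD, n = 2, here and below), the sixth, from 7856193 to 7857173, 23.2 ± 1.65, and number 10, from 7251156 to 7251846, 21.9 ± 1.75. The ninth, from 3959017 to 3959646, was the least settled, with folds of 29.3 and 15.1 (SD 10.1). These 4 make up the opening group. In the closing run, the third (43860363 to 43860978) had 24.3 ± 0.289 and the fourth (46099590 to 46100234) 23.5 ± 2.80. The fifth (43748593 to 43749209) had 23.3 ± 2.86, the seventh (40797580 to 40798245) 22.4 ± 5.13 and the eighth (46933386 to 46934118) 22.4 ± 1.42. With SDs of up to 10.1 the order below the first few is not resolved.

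On chromosome 20 all 10 strongest regions lay in the closing run, which held 73.9% of all its regions, against 9.20% in the opening run. The second, from 37112700 to 37113506, had 23.0 ± 3.86, the third, from 45538203 to 45538913, 22.9 ± 0.789, and the fourth, from 33762842 to 33763514, 22.4 ± 1.67. Numbers 5 and 6, from 39709463 to 39710196 and from 39268248 to 39269066, both had 21.8, with SDs of 3.46 and 4.30. The seventh (42280747 to 42281395) had 21.6 ± 4.45 and the eighth (38604944 to 38605636) 21.3 ± 1.38. In numbers 9 (43441393 to 43442290) and 10 (44348080 to 44348838), replicate 2 was the higher, with 25.5 against 17.1 and 24.6 against 16.7. None of the 10 lay within 441 kb of another, and on chromosome 10 the closest pair was 112 kb apart. The 10 strongest sites of each chromosome thus formed no tight cluster among themselves.

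**Figure D4:**
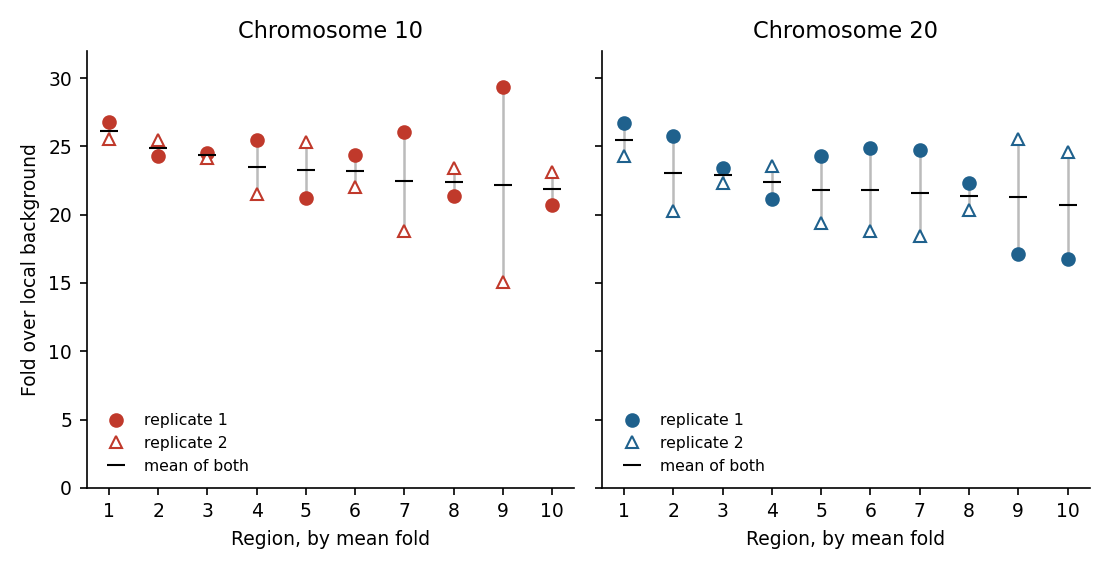
Fold over local background (y axis, linear) of the 10 regions with the largest mean fold on chromosome 10 (left) and chromosome 20 (right), ordered by mean fold (x axis). Filled circles are replicate 1, open triangles replicate 2 and dashes their mean. Means run from 26.2 to 21.9 on chromosome 10 and from 25.5 to 20.7 on chromosome 20, and the replicates of a region often lie farther apart than neighbouring regions.

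Shared regions of chromosome 20 were also slightly weaker. The median fold of shared regions was 6.23 in replicate 1 and 4.90 in replicate 2 on chromosome 20, against 6.47 and 5.04 on chromosome 10. Chromosome 20 was the lowest of the 20 chromosomes in replicate 1 and second lowest in replicate 2. Over all peaks of replicate 1, shared or not, the medians were 4.71 on chromosome 20 and 4.69 on chromosome 10, the other way by a small margin. Over all peaks of replicate 2 they were 4.82 and 4.96, in the same order as for shared regions. Median pileups, the fragments over a summit, were 69 and 43 on chromosome 20 and 72 and 44 on chromosome 10. Median local background was the same on both, at 10.1 fragments in replicate 1 and 7.81 in replicate 2. These differences between chromosomes were small beside the spread of sites within a chromosome, whose mean folds had quartiles of 4.40 and 8.32 on chromosome 10 and 4.34 and 7.89 on chromosome 20. Of the regions of chromosome 20, 103 (8.53%, Wilson 95% interval 7.09 to 10.2%) belonged to the strongest 10% of the series, with a mean fold of at least 12.02, against 146 (9.88%, 8.47 to 11.5%) on chromosome 10. The share over the whole series is 10.0%, so both counts lie near the background.

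Regions of chromosome 20 were weakest in its short opening run. There the median fold was 5.47 in replicate 1 and 4.602 in replicate 2, and 4 of 111 regions (3.604%, Wilson 95% interval 1.41 to 8.90%) belonged to the strongest 10%. The opening run of chromosome 10 had 6.58 and 5.01, with 55 of 446 (12.3%, 9.60 to 15.7%). In the closing runs the chromosomes were nearly equal, with 6.44 and 5.05 on chromosome 10 and 6.46 and 4.98 on chromosome 20. The median mean fold of the opening run of chromosome 20, 5.07, was the lowest of the 19 chromosomes that have such a run, whose values reached 6.05. Runs were set by density, which both replicates share. Taken by length, the first 20% of chromosome 20 was again the lowest of all chromosomes in both replicates, at 5.56 and 4.67.

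Bin by bin, number and strength did not move together in the same way on both chromosomes. Over bins with at least 5 regions, the Spearman correlation of count with median mean fold was -0.11 on chromosome 10 (36 bins) and 0.464 on chromosome 20 (33 bins). The strengths of bins at the same count from position 1 were unrelated, with -0.12 over 28 bins. Medians of bins with few regions vary widely, so these values are descriptions only.

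**Figure D5:**
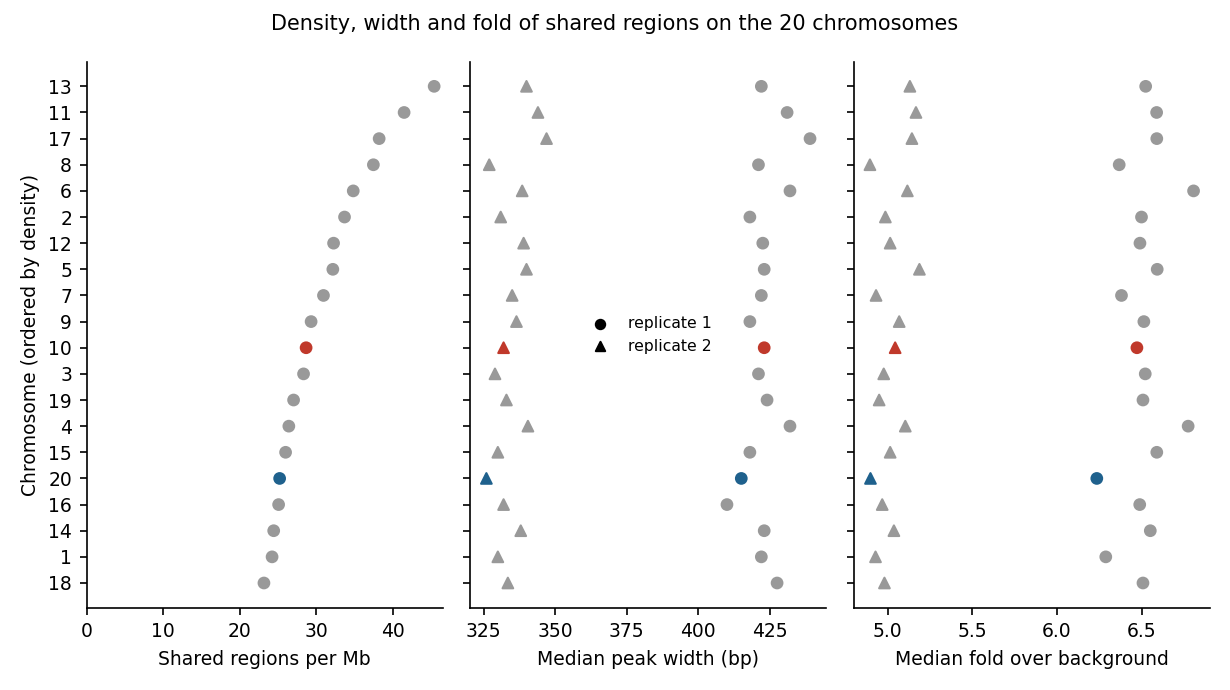
Density of shared regions (left, regions per Mb), median width of their strongest peak (middle, bp) and median fold (right) for the 20 chromosomes, ordered by density (y axis). Circles on the middle and right are replicate 1 and triangles replicate 2, with chromosome 10 in red and chromosome 20 in blue. Chromosome 20 has the lowest fold in replicate 1, 6.23, and the lowest peak width in replicate 2, 326 bp; the width and fold axes do not start at 0.

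Dense windows of 100 kb held about as many sites on both chromosomes. The fullest of chromosome 10 ran from 2400001 to 2500000, with 16 regions from 25 peaks of replicate 1 and 17 of replicate 2. It was followed by the window from 46000001 to 46100000 with 15. Windows with 14 began at 2000001, 47700001 and 49700001. On chromosome 20 the fullest ran from 41800001 to 41900000, with 15 regions from 19 and 15 peaks, and windows with 14 began at 37300001, 38200001 and 39000001. Their median mean folds lay between 5.00 and 6.90, near those of the whole chromosomes, so dense windows were not windows of strong sites. Each held at least 1 region of the strongest 10%, with maxima of 12.6 to 23.5. The share over the whole series is 10.0%, which would give most windows of 14 to 16 regions at least 1. This is therefore no trait of the dense windows. Windows with at least 10 regions numbered 28 on chromosome 10 and 14 on chromosome 20, and 37.2 and 37.3% of windows had none.

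Widths differed little. The median region was 433 bp wide on chromosome 10 (quartiles 351 and 554) and 422 bp on chromosome 20 (349 and 540), which was the lowest median of the 20 chromosomes, whose highest was 446. Peaks standing for these regions had medians of 423 and 415 bp in replicate 1 and 332 and 326 bp in replicate 2, so the order held in both. Width rose with strength on both, with Spearman correlations across regions of 0.594 and 0.579. Regions over 1000 bp numbered 28 on chromosome 10 (1.90%, Wilson 95% interval 1.31 to 2.73%) and 21 on chromosome 20 (1.74%, 1.14 to 2.65%), against 1.77% of the series. On chromosome 10, 23 of these lay in the closing run and 5 in the opening run, which held 57.9 and 30.2% of its regions. On chromosome 20, 20 lay in the closing run, which held 73.9% of its regions. None of the 111 regions of its opening run was that wide, but 111 are too few to set this apart from the 1.77% of the series. Regions with more than 1 peak in a replicate numbered 25 (1.69%) and 16 (1.33%), against 1.55% of the series.

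The widest region of each chromosome had similar summit spacings in mirror order. On chromosome 10 it ran from 47753578 to 47755785 (2208 bp), and reached a fold of 17.4 in replicate 1 and 14.03 in the other. On chromosome 20 it ran from 38286992 to 38289387 (2396 bp), at 17.3 and 14.8. Both consisted of 1 peak in replicate 1 and 3 in replicate 2, and they were the only regions with 3 peaks in a replicate on these chromosomes, among 9 on all 20. In replicate 2 the summits on chromosome 10 were spaced 515 and 1127 bp, in ascending order, with folds of 8.85, 4.36 and 14.03. On chromosome 20 they were spaced 1163 and 560 bp, with folds of 14.8, 6.83 and 5.74. The strongest summit thus lay next to the longer spacing in both, near the right edge on chromosome 10 and near the left edge on chromosome 20. The other 2 summits were not mirrored in strength, since the weakest was the middle one on chromosome 10 and the one farthest from the strongest on chromosome 20. In replicate 1 it was 298 bp from the right edge and 389 bp from the left edge, respectively.

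The next strong site also lay on mirrored sides. On chromosome 10 a region of 975 bp with a mean fold of 12.3 ± 0.911 lay 6447 bp to the left of the widest region. On chromosome 20 a region of 2029 bp with 12.6 ± 4.61, the second widest there, lay 6294 bp to its right. Beyond that the match loosened: the following sites lay at 7757 bp with a mean fold of 6.04 ± 1.99 and at 9751 bp with 5.03 ± 0.807. On the other flank the nearest site of chromosome 10 was 15042 bp away, with a mean fold of 5.49 ± 0.677. That of chromosome 20 was 3376 bp away, with 4.97 ± 0.128. Regions with 3 peaks in a replicate on other chromosomes were not compared in this way. Both wide regions lay in windows named above for their 14 regions. The mirror order was noticed after the values were seen, and whether the sequences at these sites are copies was not tested. The sources used here do not give how reads matching more than 1 place were handled, and its part in the likeness was not tested.

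The remaining wide regions were less alike. On chromosome 10 the next 4 measured 1712 bp (from 49418035 to 49419746), 1651 bp (48806690 to 48808340), 1648 bp (2414899 to 2416546) and 1561 bp (49593484 to 49595044). In the third of the chromosome the strongest summits of the replicates were 1114 bp apart, so each replicate had its maximum at another part of the region. On chromosome 20 the 3 that follow the second measured 1671 bp (36867051 to 36868721), 1470 bp (36896228 to 36897697) and 1455 bp (45646539 to 45647993). Mean folds of these ranged from 9.38 ± 5.44 to 14.4 ± 1.69 on chromosome 10 and from 10.3 ± 2.66 to 15.7 ± 2.39 on chromosome 20. Their places in the whole series ran from 1129 to 5526 of 28903, so none was among the 10 strongest of its chromosome. Wide regions were nevertheless strong as a group. Regions over 1000 bp had a median mean fold of 9.90 and 9.44 on chromosomes 10 and 20, against 5.69 and 5.62 for all regions.

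Local order was compared over all sites by runs of 4 neighbouring regions, with spacings under 50 kb. A pair of runs was counted as matching when their 3 spacings were each within 20% and their 4 mean folds each within a factor of 1.5. Chromosome 10 had 1096 runs and chromosome 20 had 827. In the same orientation 49 combinations matched, or 0.541 per 10000 compared, placed 9 of 190, where the median pair had 0.421 and the highest 0.776. In the opposite orientation 47 matched, or 0.519 per 10000, placed 24, against a median of 0.431. Matches were thus somewhat more frequent than in the median pair in both orientations, without the pair standing first in either. The median distance between neighbouring regions was 11181 bp on chromosome 10 and 12601 bp on chromosome 20.

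Sites of a single replicate were weak on both chromosomes. Replicate 1 had 1002 peaks without a partner on chromosome 10, with a median fold of 3.46, and 783 on chromosome 20, with 3.52. Replicate 2 had 39 and 51, with medians of 3.14 and 3.44. On chromosome 10 the strongest of replicate 1, from 4251274 to 4251685, had a fold of 8.75. On chromosome 20 it lay from 23885449 to 23885761, in the middle of the chromosome, where 60 fragments (exact Poisson 95% interval 45.8 to 77.2) gave a fold of 7.55. The strongest of replicate 2 were weaker, with a fold of 5.31 from 11966447 to 11966753 on chromosome 10 and of 4.78 from 34207472 to 34207720 on chromosome 20. Without the libraries' read totals, such a site cannot be called unbound in the other replicate. Peaks with a local background above 30 fragments, which have low folds, numbered 3 and 12 in replicates 1 and 2 on chromosome 10 and 7 and 17 on chromosome 20.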

How the data were processed

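The peak lists of 2 ChIP libraries were used, and the inputs enter only through the authors' peak calling. Per the submitters' processing notes, reads were aligned with Bowtie 0.12.7 and peaks called with MACS2. For the genome build, settings and input pairing, the sources used here give nothing, and the peak names carry a q of 0.01. Per the narrowPeak layout of the deposited files, each peak has a fold, which is a ratio to local background, and a −log10 p and −log10 q. In the deposited lists the score is the −log10 q times 10 without its decimals (100% of peaks), so it was not used separately.

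Pileups were solved as whole numbers from the deposited fold and −log10 p, within 0.000204. Across the series they ran from 19 to 408 fragments. Read totals, and so depth, are unknown. Wilson and exact Poisson intervals are at 95%. They cover counting error only. Each region was placed at its strongest replicate 1 summit. Chromosomes were measured to their last peak, and incomplete last bins were left out of profile correlations. Every correlation was computed alike for all 190 chromosome pairs. The overlap, pileup and profile steps were tested on simulated data. A planted copy of chromosome 10 placed 1 of 190 by profile in its orientation, and 1 or 2 after removal of the mean profile. The copy had the full length of chromosome 10 and most of its sites, little moved. Whether partial or displaced copies would be found was not tested. Python 3.11.15, numpy 2.4.6, pandas 2.3.3, scipy 1.17.1 and matplotlib 3.10.9 were used.

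The members, measures and alternatives were chosen with earlier results of these data known. Regions were named by fixed numbers: the 10 strongest, 5 widest and 5 longest stretches of each chromosome, the 3 densest windows with ties, the densest bins and the strongest unshared peaks. The dense runs, spacing runs, overlap of stretches, groups of bins and mirrored regions were added after seeing the data. Links between duplicated genes were planned but need protein sequences, and were not analysed here. The only gene table used here belongs to assembly 4.0, and its coordinates were not used. p-values between groups were not computed. Replicates are biological per the labels, and SDs are over 2 libraries.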

Additional observations from a re-analysis of the deposited data

How the results depend on the processing

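Of 152 values computed under alternatives for 20 results, 92 moved by less than the SD between the replicates' own values, or for counts by less than 1.5 times. For the others the cause was not tested. The values include those of single replicates, from which the SD is taken. They also include pileups set against folds, and shares of the outer 10% set against those of the outer 20%. The count of 92 is thus no measure of how firm the results are. The SD of density was wide, at 12.9 and 10.6 regions per Mb on chromosomes 10 and 20, since replicate 1 has more peaks. At a −log10 q of at least 10, density fell to 20.1 and 17.3 per Mb, and regions from 1477 to 1038 and from 1207 to 828. These falls lie within the limits given, which are too wide to show that density or number was stable. Bins counted from the last peak, or chromosome 10 read from its end, were added after seeing the data.

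In the same orientation the correlation of 0.695 became 0.681 and 0.665 with a −log10 q of at least 5 and 10, 0.678 with 50% reciprocal overlap, 0.642 and 0.805 in bins of 500 kb and 2 Mb, 0.597 by Pearson, 0.787 in relative bins and 0.808 from the last peak. It lay between 0.692 and 0.702 in single replicates. Its place of 44 became 52 and 56 (q), 32 (2 Mb), 93 (Pearson), 29 (relative) and 12 (last peak), and 47 to 55 in single replicates. In the opposite orientation, 0.411 became 0.453 (2 Mb) and 0.279 (relative), and it reversed to -0.043 with chromosome 10 read from its end; single replicates gave 0.426 to 0.483. Its place of 116 became 121 (Pearson), 157 (relative) and 165 (other end), and 110 to 116 in single replicates. After removal of the mean profile, 0.676 became 0.663 and 0.614 (q), 0.616 and 0.737 (100 and 25 relative bins in place of 50), and 0.688 to 0.701 in single replicates. Its place of 19 became 16 by Pearson and 14 to 18 in single replicates.

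Median mean fold became 7.01 and 6.79 on chromosomes 10 and 20 at a −log10 q of at least 10; on chromosome 20 it became 5.72 at 5 and 5.71 with reciprocal overlap. Single replicates gave 4.69 to 4.96 and 4.71 to 4.82 over all their peaks, and by replicate 1 alone chromosome 20 was the higher. As pileup the medians were 57.5 and 56.0 fragments. Median width became 470.5 and 454 bp at 10, and 330 to 351 and 323 to 349 in single replicates. The outer share of chromosome 10 became 76.3% at 10 and 76.1 to 76.5% in single replicates (chromosome 20: 62.1 to 63.0%); with the outer 10% at each end the shares were 47.7 and 34.1%. Single replicates had 1540 to 2481 and 1275 to 1991 peaks, 29.9 to 48.1 and 26.6 to 41.6 per Mb, longest stretches of 1.43 to 2.85 and 2.71 to 2.83 Mb, and up to 17 to 25 and 16 to 21 per window. No paired analysis was possible because the result comes from no test between groups of libraries.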
